A study of Mus musculus with 57 samples.

Results

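Mitochondrial dynamics was followed through 9 genes in the hearts of doxorubicin (Doxo)-treated mice. The genes were Mfn1, Mfn2 and Opa1 for fusion, Oma1 and Yme1l1 for the cleavage of OPA1, Dnm1l, Fis1 and Mff for fission, and Pink1 for the removal of damaged mitochondria. They were chosen by symbol from a list of mitochondrial dynamics genes. All 9 were present in both count tables, which hold 25416 genes (acute study) and 54658 genes (chronic study), and all 9 passed the low-count filter in both.

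All mice were male C57BL6/J. In the acute study, hearts of 14 Ctrl, 13 Doxo and 13 Doxo-NMN mice, bought at 9 weeks of age, were collected 5 days after 1 intraperitoneal injection of 20 mg/kg Doxo or of saline. The Doxo-NMN mice also received nicotinamide mononucleotide (NMN), an NAD+ precursor, by intraperitoneal injection at 180 mg/kg/day from 5 days before Doxo, while the Ctrl and Doxo mice received vehicle. In the chronic study, hearts of 5 Ctrl, 6 Doxo and 6 Doxo-NMN mice were collected 60 days after the first of 5 injections of 4 mg/kg Doxo, or of PBS in Ctrl mice, which started at 14 to 16 weeks of age. There the Doxo-NMN mice received NMN in the drinking water at 500 mg/kg/day, also from 5 days before Doxo. A group with NMN alone was not analysed here. The studies differ in schedule, age, mouse supplier, diet, dose and route of NMN, and sequencing site. The paper reports lower survival after Doxo in both studies. It also reports higher survival with NMN, a gain that was not significant in the chronic study. The hearts compared are thus those of mice alive at collection, and the groups lost different shares of their mice. The part of this selection in the differences between groups, Doxo-NMN vs. Doxo included, was not tested.

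Mitochondria in cardiomyocytes fuse and divide continuously. MFN1 and MFN2 are GTPases that join outer membranes, and OPA1 joins inner membranes and shapes the cristae. The inner membrane proteases OMA1, which is activated by stress, and YME1L1 cut OPA1 into short forms. The GTPase DRP1, encoded by Dnm1l, constricts and divides the organelle at sites where outer membrane proteins such as MFF and FIS1 reside. The kinase PINK1 builds up on depolarised mitochondria and marks them for mitophagy. The processing of OPA1, the location of DRP1 and the stability of PINK1 are controlled at the protein level, which RNA-seq does not measure.

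The depth was 32409622 to 52102850 counts per heart in the acute study and 17769886 to 23862287 in the chronic study, as counted in each table. Low counts were mostly even in the acute study (a median of 73.6% per heart, against 40.3% in the chronic study), so that these depths are not directly comparable. Levels are given as CPM, counts scaled to a common library size after TMM normalization. In the acute study, 10 cardiomyocyte markers summed to a mean of 87806 CPM in Ctrl hearts, of 71183 CPM after Doxo and of 91385 CPM with NMN, so that heart muscle was plainly present in every group while the share of its RNA differed. In RNA of heart tissue, fewer cells of a type and less RNA per cell cannot be told apart. In the acute study the library labelled Doxo replicate 6 stood apart from its group. On an axis where the mean Ctrl heart lies at 0 and the mean Doxo heart at 1, the heart placed being left out of the means, it was placed at 0.0277, where Ctrl hearts spanned -0.0401 to 0.0931 and the remaining 12 Doxo hearts 0.41 to 1.46. Its red cell markers summed to 340.4 CPM, against at most 3.81 CPM in the other Doxo hearts and at least 440.6 CPM in Ctrl hearts. Results include this heart unless stated otherwise, and values without it are given only for some members and ratios. Doxo-NMN replicate 10 lay at 0.909, against 0.237 to 0.567 in the other 12 Doxo-NMN hearts, and its cardiomyocyte markers summed to 47697 CPM, against at least 76820 CPM in the others. On the same kind of axis between the chronic group means, Doxo replicate 2 of the chronic study lay at 1.33. The other 5 Doxo hearts lay at 0.437 to 0.634 and the Ctrl hearts at 0.319 to 0.574. These positions overlapped, on axes whose Doxo mean held replicate 2, and no axis was computed without that heart for the others.

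The 4 members with the smallest adjusted p in acute Doxo vs. Ctrl were Pink1, Fis1, Oma1 and Opa1, of which 2 were higher and 2 lower. Their RefSeq promoter windows, 250 bases before to 50 after the start of the gene (GRCm38.p6), are printed 5′ to 3′ on the strand of the gene, so that the sequence in front of genes that moved in opposite directions can be compared. Capitals mark the motifs described next.
Pink1 (chr4:138326247-138326546, minus strand): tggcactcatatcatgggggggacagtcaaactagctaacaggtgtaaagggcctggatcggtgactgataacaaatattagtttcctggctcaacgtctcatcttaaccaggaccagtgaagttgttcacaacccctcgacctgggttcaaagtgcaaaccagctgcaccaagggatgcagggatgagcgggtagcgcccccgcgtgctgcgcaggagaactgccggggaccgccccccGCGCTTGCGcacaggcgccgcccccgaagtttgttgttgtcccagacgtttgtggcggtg
Fis1 (chr5:136953025-136953324, plus strand): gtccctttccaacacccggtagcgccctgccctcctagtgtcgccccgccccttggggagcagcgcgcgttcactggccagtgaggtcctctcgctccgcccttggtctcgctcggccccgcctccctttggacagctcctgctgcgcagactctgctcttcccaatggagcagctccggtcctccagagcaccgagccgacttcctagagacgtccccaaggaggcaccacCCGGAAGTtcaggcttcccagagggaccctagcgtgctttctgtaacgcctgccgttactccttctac
Oma1 (chr4:103313596-103313895, plus strand): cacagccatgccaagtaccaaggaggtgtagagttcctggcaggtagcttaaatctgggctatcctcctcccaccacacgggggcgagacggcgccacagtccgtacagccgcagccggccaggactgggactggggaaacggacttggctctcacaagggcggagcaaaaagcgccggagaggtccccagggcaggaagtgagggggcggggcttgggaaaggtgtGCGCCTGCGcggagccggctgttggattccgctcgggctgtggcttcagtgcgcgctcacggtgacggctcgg
Opa1 (chr16:29579084-29579383, plus strand): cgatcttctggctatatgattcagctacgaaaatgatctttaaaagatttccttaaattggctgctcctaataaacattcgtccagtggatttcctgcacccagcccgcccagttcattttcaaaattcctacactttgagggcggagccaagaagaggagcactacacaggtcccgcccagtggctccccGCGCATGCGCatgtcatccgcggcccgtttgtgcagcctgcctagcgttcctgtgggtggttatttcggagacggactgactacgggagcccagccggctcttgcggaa

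Motifs were searched on both strands in all 32851 promoter windows. The NRF1-type motif GCGCNTGCG, which belongs to a factor known for nuclear-encoded mitochondrial genes, was present in Opa1, Oma1 and Pink1 and in 6.31% of all windows, and its matches in Opa1 overlap because the motif is nearly its own reverse complement. The ETS-type motif CCGGAAGT was present in Mfn1 and Fis1 and in 3.89% of windows. The CRE half-site TGACGT was present in Mfn2 and in 7.51% of windows. None of the 9 windows held the E-box CACGTG (7.15% of windows), the ERR half-site AAGGTCA (4.72%) or the FOXO motif TGTTTAC (3.65%). The NRF1-type motif was thus in front of members that were higher (Pink1) and lower (Oma1, Opa1) after acute Doxo. A match of letters is a description and not a binding site.

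To compare levels between genes, CPM was divided by the combined length of all annotated exons of the gene, in kilobases. In acute Ctrl hearts the order was Pink1 (213 ± 15.2 CPM per kb, SD, n = 14), Mfn2 (188 ± 9.68), Mfn1 (72.5 ± 7.09), Fis1 (34.7 ± 1.98), Opa1 (33.2 ± 3.06), Dnm1l (29.1 ± 1.31), Oma1 (14.1 ± 1.10), Yme1l1 (12.3 ± 0.470) and Mff (10.8 ± 0.478). On this measure the mitophagy kinase and the outer membrane fusion genes thus ranked highest, and the OPA1-cleaving proteases and Mff lowest. The ranges of Pink1 and Mfn2 overlapped between hearts, as did those of Fis1 and Opa1, of Opa1 and Dnm1l, of Oma1 and Yme1l1, and of Yme1l1 and Mff. Chronic Ctrl hearts gave the same order, from 234 ± 37.9 (SD, n = 5) for Pink1 to 6.74 ± 0.555 for Mff. The order depends on the exon length used. In CPM, without the division, acute Ctrl means were 105 for Mff and 98.2 for Yme1l1, above 59.4 for Fis1 and 30.3 for Oma1. In the GENCODE annotation of GRCm38, Pink1 spans chr4:138313409-138326307 (minus strand), Oma1 chr4:103313812-103371868, Fis1 chr5:136953275-136966234 and Opa1 chr16:29579334-29654884 (plus strand). Mfn1 spans chr3:32529465-32579239, Yme1l1 chr2:23156369-23199260 and Mff chr1:82724890-82752394 on the plus strand, and Mfn2 chr4:147873599-147904704 and Dnm1l chr16:16312230-16358959 on the minus strand. All members are protein-coding, and Dnm1l, Mff, Mfn2 and Pink1 overlap other annotated genes. These overlaps are of whole gene spans, and whether exons are shared was not examined. Where exons are shared, genes on the opposite strand cannot be told apart from the members without stranded counting. These are Gm49521 for Dnm1l, C430014B12Rik for Mff and the pseudogene Gm13156 for Mfn2. Those on the same strand (Gm28941, annotated as intronic, for Mff, microRNAs for Pink1) cannot be told apart by strand.

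**Figure D1:**
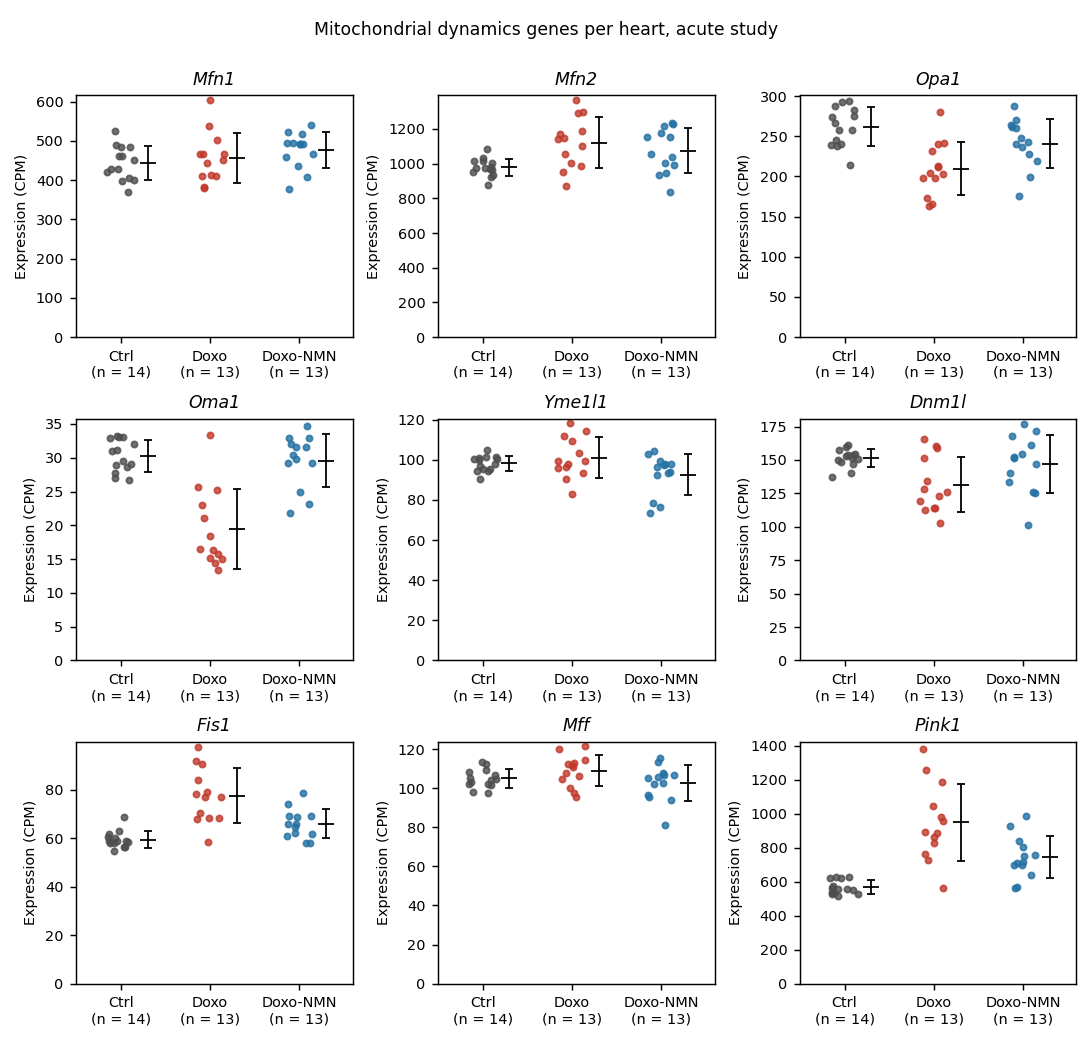
Expression (CPM, y axis from 0) of the 9 genes in each heart of the acute study, by group (x axis), with the mean ± SD beside the points. Pink1 and Fis1 are higher, and Oma1, Opa1 and Dnm1l lower, in most Doxo hearts than in Ctrl hearts, and 1 Doxo heart (replicate 6) lies at the Ctrl level of Pink1 (563.6 CPM) and Oma1 (33.4 CPM).

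The first comparison, acute Doxo vs. Ctrl, asked which of the 9 genes changed 5 days after the drug. Pink1, Fis1 and Mfn2 were higher in Doxo hearts, and Oma1, Opa1 and Dnm1l were lower, while Mfn1, Yme1l1 and Mff did not pass the test (edgeR quasi-likelihood F-test, adjusted p under 0.05 over 14240 genes). Thus 3 of 9 were called higher, against 34.8% of all genes tested, and 3 of 9 lower, against 33.3%, so that the share of members called was near the background. With a change of at least 1.5-fold added, 1 was higher (Pink1, background 14.7%) and 1 lower (Oma1, background 15.4%). The median log2 fold change was 0.04 over the members and -0.00157 over all genes tested.

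Pink1 showed the largest rise of the 9. Its level ran from 515.7 to 629.9 CPM in Ctrl hearts (median 557.6, n = 14) and from 563.6 to 1381 CPM in Doxo hearts (median 891.6, n = 13). In 12 of 13 Doxo hearts it was above every Ctrl heart, the exception being replicate 6. The log2 fold change was 0.74 ± 0.09 (SE, 1.67-fold, edgeR adjusted p = 1.58e-08), and 0.79 without replicate 6. The spread also differed, with an SD of 225 CPM in Doxo hearts and 40.6 CPM in Ctrl hearts.

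Fis1 had 54.7 to 68.5 CPM in Ctrl hearts (median 58.8) and 58.5 to 97.5 CPM in Doxo hearts (median 76.8). In 9 of 13 Doxo hearts it exceeded every Ctrl heart. The log2 fold change was 0.38 ± 0.06 (SE, edgeR adjusted p = 4.03e-07). Mff, whose product recruits DRP1, stayed between 95.6 and 121.7 CPM in Doxo hearts and between 97.6 and 113.4 CPM in Ctrl hearts, with a log2 fold change of 0.05 ± 0.04 (adjusted p = 0.276). For Mff, the interval of 2 SE around the change ran from -0.03 to 0.14 on the log2 scale.

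Oma1 showed the largest fall. It had 26.7 to 33.2 CPM in Ctrl hearts (median 30.2) and 13.4 to 33.4 CPM in Doxo hearts (median 16.4). In 12 of 13 Doxo hearts it was below every Ctrl heart, whereas replicate 6 had more than any Ctrl heart. The log2 fold change was -0.64 ± 0.10 (SE, edgeR adjusted p = 9.84e-07), and -0.73 without replicate 6. Yme1l1, the other protease that cuts OPA1, had medians of 99.1 CPM in Ctrl and 99.5 CPM in Doxo hearts (log2 fold change 0.04 ± 0.05, adjusted p = 0.491), although Doxo hearts spread more widely, with an SD of 10.1 CPM against 3.77 CPM.

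Opa1, the substrate of both proteases, had 214.3 to 294.4 CPM in Ctrl hearts (median 261.8) and 163.2 to 280.1 CPM in Doxo hearts (median 204.6). In 9 of 13 Doxo hearts it was below every Ctrl heart, and its log2 fold change was -0.32 ± 0.07 (SE, edgeR adjusted p = 0.000172). Dnm1l fell from a median of 152.1 CPM to 125.9 CPM (log2 fold change -0.20 ± 0.07, adjusted p = 0.0117), with 9 of 13 Doxo hearts below and 1 above the Ctrl range. The antisense gene Gm49521 overlaps Dnm1l, and its part in this change was not tested.

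Of the mitofusins, Mfn2 rose from a median of 974.4 CPM to 1141 CPM (log2 fold change 0.20 ± 0.06, SE, edgeR adjusted p = 0.00492), with 8 of 13 Doxo hearts above and 1 below the Ctrl range. Mfn1 had medians of 439.9 CPM in Ctrl and 452.0 CPM in Doxo hearts (log2 fold change 0.04 ± 0.06, adjusted p = 0.551). The Mfn2 and Dnm1l calls were the smallest of the 6. Among hearts with at least 100 CPM of the atrial gene Myl4 (8 Ctrl and 5 Doxo), Mfn2 was not called (0.08), and among those under it (6 Ctrl and 8 Doxo), Dnm1l was not called (-0.17), while Pink1, Fis1, Oma1 and Opa1 were called in both sets. The Mfn2 change was 0.13 with the atrial markers as a covariate and 0.13 with the length measure described next, and was called with each.

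Library features that moved with the groups are given beside these changes. The summed CPM of the 10 cardiomyocyte markers ran from 78094 to 96580 in Ctrl and from 45067 to 99573 in Doxo hearts. The 6 atrial markers had medians of 2732 CPM in Ctrl and 77.6 CPM in Doxo hearts, but both groups were mixed. Their sums ran from 62.9 to 5499 CPM in Ctrl and from 52.5 to 2130 CPM in Doxo hearts. Myl4 reached 100 CPM in 8 of 14 Ctrl and 5 of 13 Doxo hearts. The Ctrl median thus fell among hearts over that limit, and the Doxo median among hearts under it. With the atrial sum as a covariate the same number of members (6) was called. The 5 red cell markers had medians of 1128 and 2.27 CPM, and the 5 adipocyte markers of 11.1 and 0.715 CPM. The adipocyte sums also overlapped, from 0.0626 to 48.7 CPM in Ctrl and from 0.150 to 33.7 CPM in Doxo hearts. The 7 fibroblast markers had medians of 1129 CPM in Ctrl and 825 CPM in Doxo hearts, the 6 endothelial markers of 1002 and 854 CPM, and the 6 macrophage markers of 168 and 129 CPM. The difference in median log2 CPM between genes with exons over 6000 bases and those under 2000 bases averaged -0.00318 ± 0.0487 (SD) in Ctrl and -0.0562 ± 0.101 in Doxo hearts, relative to the median Ctrl heart. With that difference as a covariate, an alternative added after the data were seen, 6 members were again called, and Pink1 had a log2 fold change of 0.60 and Oma1 of -0.66. The part of cell composition in the changes was not tested further.

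**Figure D2:**
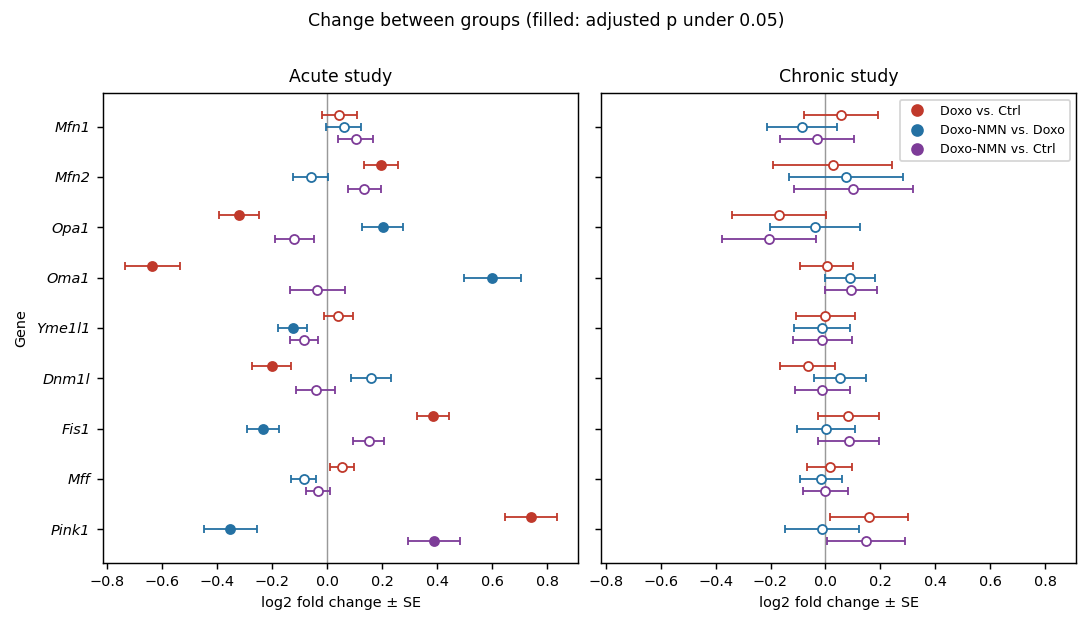
Log2 fold change ± SE (x axis) of each gene (y axis) in each comparison of the acute (left) and chronic (right) study, filled where the adjusted p is under 0.05. In the acute study Pink1 (0.74) and Oma1 (-0.64) change most after Doxo and move the opposite way with NMN (-0.35 and 0.60), and no point is filled in the chronic study.

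Whether NMN altered these levels in Doxo-treated hearts was examined in acute Doxo-NMN vs. Doxo. Oma1 and Opa1 were higher with NMN, and Pink1, Fis1 and Yme1l1 were lower. The 2 of 9 called higher stand against 25.7% of all genes, and the 3 of 9 called lower against 27.4%. At 1.5-fold, Oma1 alone was higher (background 8.17%) and none was lower (background 8.88%). This comparison uses the same Doxo hearts as Doxo vs. Ctrl, so that the changes of the 2 comparisons are not independent of each other.

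Oma1 had 21.8 to 34.7 CPM in Doxo-NMN hearts (median 30.3), against the 13.4 to 33.4 CPM of Doxo hearts, a log2 fold change of 0.60 ± 0.10 (SE, edgeR adjusted p = 1.37e-05), and 0.69 without Doxo replicate 6. Opa1 had 175.1 to 287.1 CPM (median 243.3) and a log2 fold change of 0.20 ± 0.07 (adjusted p = 0.0196). Pink1 had 561.9 to 985.6 CPM (median 717.0) and fell by 0.35 ± 0.10 on the log2 scale (adjusted p = 0.0022). Fis1 had 57.9 to 78.8 CPM (median 65.8) and fell by 0.23 ± 0.06 (adjusted p = 0.00117). The lowest Doxo-NMN values of Oma1 and Opa1 came from replicate 10, which stood apart, and without it the changes were 0.63 for Oma1 and 0.23 for Opa1. Among hearts under 100 CPM of Myl4, Opa1 (0.16, adjusted p = 0.173) and Yme1l1 (-0.16, adjusted p = 0.129) were not called, while Oma1, Fis1 and Pink1 were. Among the remaining hearts, Yme1l1 was not called (-0.06) and Dnm1l was (0.25, adjusted p = 0.0232). For Oma1, Opa1, Pink1 and Fis1 the groups overlapped in part, and the Doxo-NMN median lay between those of Doxo and Ctrl hearts for Opa1, Pink1 and Fis1.

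Yme1l1, which had not passed the test after Doxo, was lower with NMN by 0.13 ± 0.05 on the log2 scale (edgeR adjusted p = 0.0421). Its level was 73.4 to 104.6 CPM in Doxo-NMN hearts (median 96.2), and the 3 lowest hearts, replicates 11 to 13 with 73.4 to 78.6 CPM, lay below every Doxo heart. Those 3 hearts also had the lowest levels of long against short genes of the group, with differences of -0.242, -0.136 and -0.226, while the other Doxo-NMN hearts lay between -0.0796 and 0.0647. The call was kept with that measure as a covariate (-0.13, adjusted p = 0.0247), and was lost in 14 of the 40 fits that left out 1 heart (Ctrl replicates 1, 4, 5 and 13, Doxo replicates 2, 5, 7, 8, 9 and 13, or Doxo-NMN replicates 6, 11, 12 and 13), with changes of -0.12 to -0.10 and adjusted p up to 0.0995. Ctrl hearts act on this comparison only through the shared fit. Dnm1l (0.16 ± 0.07, adjusted p = 0.0599), Mff (-0.09 ± 0.04, adjusted p = 0.0967), Mfn1 (0.06 ± 0.06) and Mfn2 (-0.06 ± 0.06) did not pass the test, and Dnm1l did without Doxo replicate 6 (0.19, adjusted p = 0.0248).

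In acute Doxo-NMN vs. Ctrl, which asked what remained different with NMN, Pink1 was the 1 gene called higher (background 15%), and none was called lower (background 11.1%). No member passed at 1.5-fold (backgrounds 3.31% and 3.79%). The Pink1 level exceeded every Ctrl heart in 11 of 13 Doxo-NMN hearts, with a log2 fold change of 0.39 ± 0.09 (SE, edgeR adjusted p = 0.00216). The call was lost among hearts with at least 100 CPM of Myl4 (0.16, 8 Ctrl and 4 Doxo-NMN hearts), and with the length measure as a covariate it was kept at 0.25. Fis1 lay just outside the threshold (0.15 ± 0.06, adjusted p = 0.0506), and passed it without Doxo replicate 6 (adjusted p = 0.0298). That heart is in neither group compared, and acts on the result only through the shared fit. For Oma1 the log2 fold change was -0.04 ± 0.10, with an interval of 2 SE from -0.24 to 0.16, and for Opa1 it was -0.12 ± 0.07, from -0.26 to 0.02.

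Members of each pair with a shared function were compared within a heart as the log2 ratio of their counts (2 counts added, scaled to the library), in 18 two-sided permutation tests over both studies, exact in the chronic study and with 100000 resamples in the acute study. The ratio of the stress-activated to the constitutive OPA1 protease, Oma1/Yme1l1, had a mean of -1.70 ± 0.148 (SD, n = 14) in acute Ctrl hearts, -2.42 ± 0.385 (n = 13) in Doxo hearts and -1.65 ± 0.283 (n = 13) in Doxo-NMN hearts. It was lower in Doxo than in Ctrl hearts by 0.72 (permutation test, adjusted p = 9.0e-05, from the smallest p that the resamples can give), and higher in Doxo-NMN than in Doxo hearts by 0.77 (adjusted p = 0.0003). Doxo-NMN and Ctrl hearts differed by 0.05 (adjusted p = 0.768). The exons of Oma1 total 2144 bases and those of Yme1l1 8009 bases. Doxo-NMN replicates 11 to 13, with the lowest levels of long against short genes of that group, had its highest ratios (-1.36, -1.20 and -1.26). The ratios were not tested with the length measure.

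The ratio of the fission adaptors, Mff/Fis1, had means of 0.82 ± 0.0709 (SD) in acute Ctrl hearts, 0.50 ± 0.171 in Doxo hearts and 0.64 ± 0.19 in Doxo-NMN hearts. Doxo hearts differed from Ctrl hearts by -0.32 (permutation test, adjusted p = 9.0e-05), with 12 of 13 below every Ctrl heart, and Doxo-NMN hearts from Ctrl hearts by -0.18 (adjusted p = 0.00553). The difference between Doxo-NMN and Doxo hearts was 0.14 (adjusted p = 0.176). The exons of Mff total 9757 bases and those of Fis1 1714 bases. The lowest Doxo ratios were those of replicates 4 (0.12) and 10 (0.28), with long against short gene differences of -0.198 and -0.197. Replicates 1 and 13 had ratios of 0.44 and 0.54 at differences of 0.150 and -0.167. The part of gene length in this ratio was not tested. The mitofusin ratio, Mfn1/Mfn2, differed by -0.15 between Doxo and Ctrl hearts (adjusted p = 0.0651), and by -0.16 without Doxo replicate 6 (adjusted p = 0.0358). It spread more among Doxo hearts, with an SD of 0.203 against 0.086 in Ctrl hearts.

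**Figure D3:**
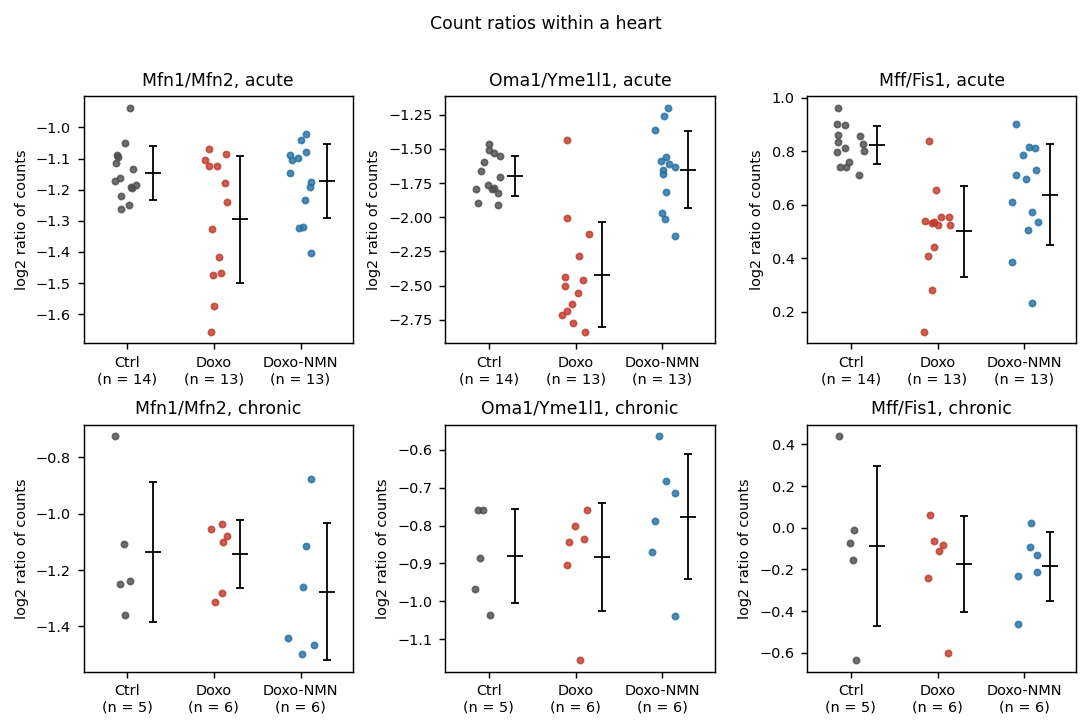
Log2 ratio of counts (y axis) of Mfn1 to Mfn2, Oma1 to Yme1l1 and Mff to Fis1 in each heart of the acute (top) and chronic (bottom) study, by group (x axis), with the mean ± SD beside the points. Acute Doxo hearts have lower Oma1/Yme1l1 (mean -2.42) than Ctrl (-1.70) and Doxo-NMN hearts (-1.65), and the chronic groups overlap in all 3 ratios.

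Other genes of the pathway were taken from 7 lists with 75 genes besides the members, of which 71 were tested in each study. In acute Doxo vs. Ctrl, 24 were higher and 18 lower (34.8% and 33.3% of all genes), with a median log2 fold change of 0.03. Mitophagy was the list with the most higher calls. Of its 19 tested genes, 14 were higher and 1 lower (Fundc1), with a median of 0.28. The list was not sorted into genes that promote and genes that restrain mitophagy, so that its counts give no direction of mitophagy. Bnip3, a mitophagy receptor, rose from a mean of 87.9 ± 16.8 CPM (SD) to 376 ± 159 CPM, with a log2 fold change of 2.10 ± 0.20 (SE, edgeR adjusted p = 7.49e-11), and Tax1bp1, a cargo adaptor, from 122 ± 4.25 to 197 ± 36.1 CPM (0.69 ± 0.08). The cargo adaptor Sqstm1 was higher by 1.82 ± 0.21. Fundc1 and Sqstm1 lie outside the rule for named genes and are given here with their values known.

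The motility list (Trak1, Trak2, Rhot1 and Rhot2, the adaptors and GTPases that move mitochondria on microtubules) had 4 of 4 genes lower, led by Trak2 (-0.53 ± 0.11, SE) and Rhot2 (-0.51 ± 0.12). The fusion list had 4 of 9 lower and 0 higher, with Miga2, an outer membrane fusion factor, at -1.29 ± 0.24 and Stoml2 at -0.21 ± 0.06. The cristae list had 3 of 10 lower, with Apool at -0.43 ± 0.09 and Dnajc11 at -0.38 ± 0.08, and 0 higher. The fission list was split, with 2 higher and 2 lower of 9, among them Mtfp1 (-1.21 ± 0.23) and Mtfr2 (2.72 ± 0.42), whose level was low (mean 0.236 CPM in Ctrl and 1.58 CPM in Doxo hearts). The proteases had 4 of 12 higher, with Parl, which cleaves PINK1, at 0.36 ± 0.06, and 2 lower, with Pmpcb at -0.41 ± 0.08. All values are edgeR log2 fold changes with adjusted p under 0.05. Over all genes tested, 34.8% were called higher and 33.3% lower. The cristae count (3 of 10 lower) and the protease count (4 of 12 higher) were thus near the background.

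In the relay through which OMA1 activity reaches the nucleus (DELE1, the kinase encoded by Eif2ak1, ATF4 and its targets), 4 of 8 genes were higher and 2 lower after acute Doxo. These counts stand against 34.8% higher and 33.3% lower over all genes tested. Atf4 was higher by 1.47 ± 0.20 (SE, edgeR adjusted p = 6.72e-08), and Dele1, the substrate of OMA1, was lower by 0.34 ± 0.08 (adjusted p = 0.000427). Oma1 and Dele1 RNA were thus both lower while Atf4 RNA was higher.

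In acute Doxo-NMN vs. Doxo, 17 of the 71 other pathway genes were higher and 18 lower (25.7% and 27.4% of all genes), with a median log2 fold change of 0.01. The mitophagy list had 11 of 19 lower and 3 higher, with Bnip3 at -1.23 ± 0.20 (SE) and Tax1bp1 at -0.50 ± 0.08. The motility list had 3 of 4 higher and 0 lower, the fusion list 3 of 9 higher and 0 lower, and the cristae list 3 of 10 higher and 0 lower. The fission list had 1 higher and 2 lower of 9, the proteases 2 higher and 3 lower of 12, and the OMA1 relay 2 higher and 2 lower of 8. Miga2 (0.96 ± 0.24) and Mtfp1 (1.17 ± 0.24) were higher with NMN, as was Dele1 (0.36 ± 0.08), and Atf4 was lower (-1.23 ± 0.20). In Doxo-NMN vs. Ctrl, 13 of the 71 were higher and 1 lower (15% and 11.1% of all genes). Of the 13, 8 were on the mitophagy list, among them Bnip3 (0.87 ± 0.19).

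**Figure D4:**
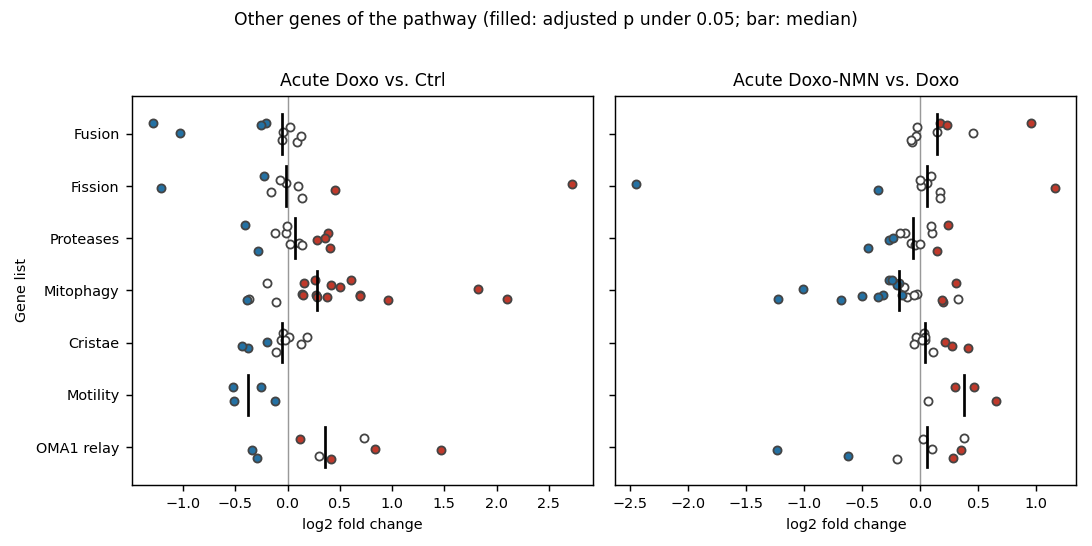
Log2 fold change (x axis) of each tested gene of the 7 pathway lists (y axis) in acute Doxo vs. Ctrl (left) and Doxo-NMN vs. Doxo (right), filled where the adjusted p is under 0.05, with the median as a bar. The mitophagy list has 14 filled points on the higher side after Doxo and 11 on the lower side with NMN, and the 4 motility genes are all lower after Doxo.

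For 8 of the members, the gene outside the list whose log2 CPM followed it most closely over the 40 acute hearts was found after the group means were removed. These were Grsf1 for Mfn1 (Pearson r = 0.890), Capzb for Mfn2 (0.878), Uqcrc2 for Opa1 (0.937), Epb41l4a for Oma1 (0.942), Zranb2 for Yme1l1 (0.836) and Mtx2 for Mff (0.819). Pink1 (0.951) and Fis1 (0.909) had the same closest gene, Ybx1, and were the members closest to each other (r = 0.882). The lowest value between members was that of Dnm1l and Pink1 (r = -0.380). These are descriptions, chosen from 14231 genes, of hearts that share depth and composition.

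In the chronic study none of the 9 genes was called in any comparison. In Doxo vs. Ctrl, 0.0535% of 14960 genes were called higher and 0.00668% lower, in Doxo-NMN vs. Doxo 0% and 0%, and in Doxo-NMN vs. Ctrl 0.0401% and 0%. No member had an unadjusted p under 0.05 in edgeR or in DESeq2, and the lowest adjusted p was 0.794. The SE of the members ran from 0.08 to 0.22 on the log2 scale, and the intervals of 2 SE for Mfn2 (-0.41 to 0.46), Opa1 (-0.51 to 0.17) and Dnm1l (-0.27 to 0.14) in Doxo vs. Ctrl included both 0 and their acute changes, so that changes of that size could not be distinguished from no change at this number of hearts.

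Pink1 had 459, 609, 649, 687 and 719 CPM in the 5 chronic Ctrl hearts, 588.0 to 986.0 CPM in Doxo hearts (median 652.9, n = 6) and 508.5 to 754.9 CPM in Doxo-NMN hearts (median 719.8, n = 6). The groups overlapped, and the log2 fold change in Doxo vs. Ctrl was 0.16 ± 0.14 (SE), with an interval of 2 SE from -0.13 to 0.44. It was 0.04 without Doxo replicate 2 and up to 0.21 without any other heart. Oma1 had 22.6, 30.2, 31.4, 32.2 and 33.3 CPM in Ctrl hearts, 26.4 to 32.2 CPM in Doxo hearts (median 30.6) and at least 29.4 CPM in Doxo-NMN hearts (median 31.8). The change from Ctrl to Doxo was 0.00 ± 0.10, with an interval from -0.19 to 0.19. Opa1 had 77.1, 138, 151, 170 and 195 CPM in Ctrl hearts. Its median was 129.6 CPM after Doxo and 132.9 CPM with NMN, and its change from Ctrl to Doxo (-0.17 ± 0.17) was the lowest of the members, with -0.33 without Ctrl replicate 1 and -0.04 without Ctrl replicate 2.

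Some chronic hearts stood apart for several members. Ctrl replicate 1 had the lowest Mfn1 (261.8 CPM), Mfn2 (432.6 CPM), Opa1, Oma1, Yme1l1, Dnm1l, Mff and Pink1 of its group, and the highest Fis1. Its cardiomyocyte marker sum was the lowest of the group (72052 CPM, against a median of 94745), and its endothelial marker sum was 2057 CPM. Doxo-NMN replicate 4 had the lowest Mfn1 (284.4 CPM), Mfn2 (522.0 CPM), Opa1, Oma1, Mff and Pink1 of its group, with a cardiomyocyte sum of 70084 CPM and a fibroblast sum of 1202 CPM. That heart also had 81.2 CPM of Myl4, against at most 14.3 CPM in the rest of its group. Its adipocyte markers summed to 24.8 CPM, against at most 1.51 CPM. Doxo replicate 2 had the highest Pink1 of its group (986.0 CPM), with 16.1 CPM of red cell markers, against 184 to 351 CPM in the other Doxo hearts. The part of these marker levels was not tested, and leaving out any 1 heart gave no call for a member.

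**Figure D5:**
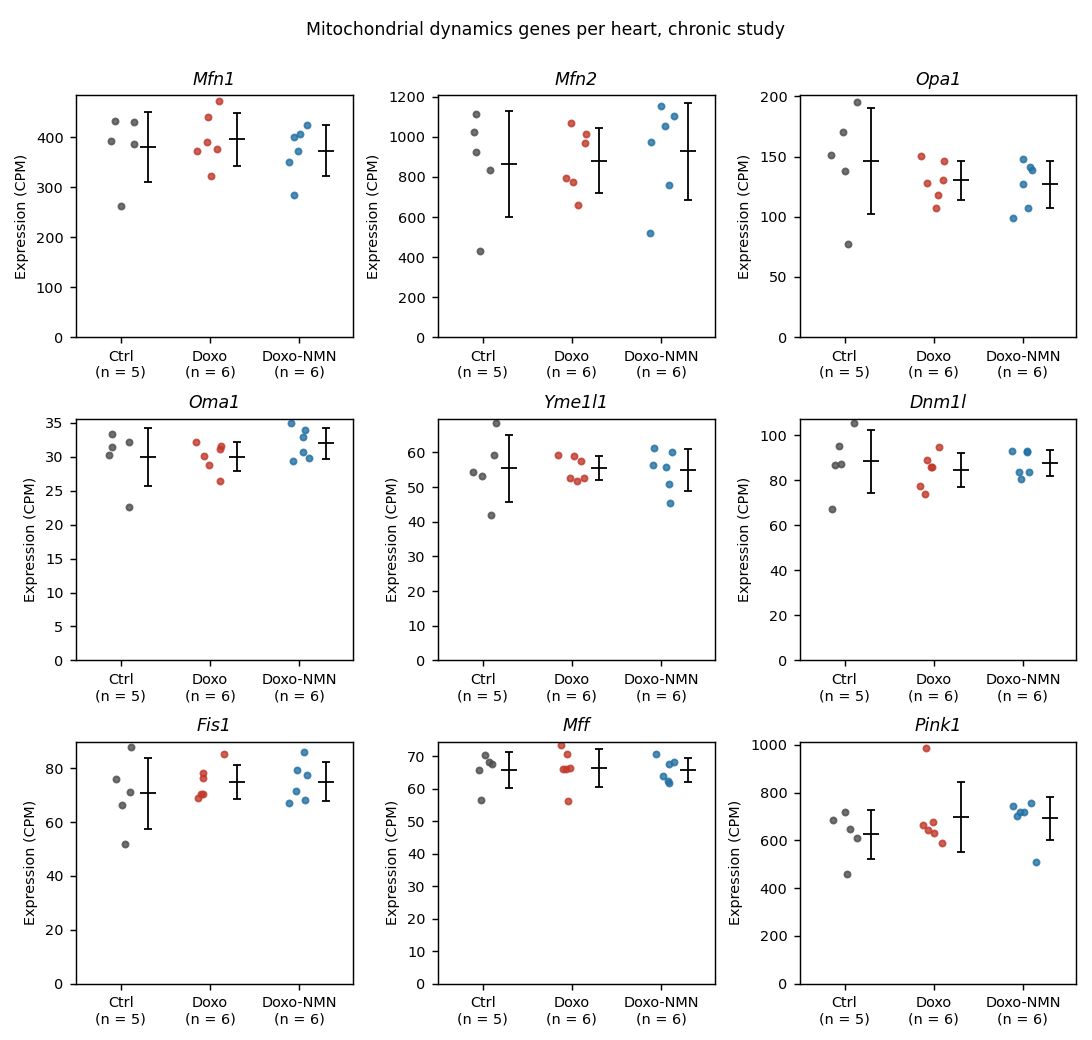
Expression (CPM, y axis from 0) of the 9 genes in each heart of the chronic study, by group (x axis), with the mean ± SD beside the points. The groups overlap for every gene, and Ctrl replicate 1 (Mfn2 432.6 CPM) and Doxo-NMN replicate 4 (Mfn2 522.0 CPM) lie low.

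The ratios did not separate the chronic groups either. Oma1/Yme1l1 had means of -0.88 ± 0.124 (SD, n = 5) in Ctrl hearts, -0.88 ± 0.142 (n = 6) after Doxo and -0.78 ± 0.164 (n = 6) with NMN. The lowest adjusted p of the 9 chronic comparisons of ratios was 0.491 (exact permutation test). Of the 71 other pathway genes, 0 were called in any chronic comparison by edgeR, and 2 to 4 had an unadjusted p under 0.05 in each.

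Whether the effect of Doxo differed between the studies was tested in 1 fit over the 6 groups. The difference passed for Oma1, with an acute minus chronic log2 effect of -0.64 ± 0.18 (SE, edgeR adjusted p = 0.00869), and for Pink1 (0.58 ± 0.18, adjusted p = 0.0148), that is for 2 of 9 members, against 23.6% of 15152 genes. Fis1 lay just outside (0.30 ± 0.12, adjusted p = 0.0536) and passed without acute Doxo replicate 6 (0.33, adjusted p = 0.0219), and without chronic Ctrl replicate 2 (0.39, adjusted p = 0.0132) or Doxo replicate 2 (0.34, adjusted p = 0.0277), whereas it was 0.21 (adjusted p = 0.195) without chronic Ctrl replicate 1. Oma1 and Pink1 passed with any 1 chronic heart left out, and of the acute hearts only Doxo replicate 6 was left out of this fit. For Opa1 (-0.15 ± 0.17), Mfn2 (0.17 ± 0.18) and Dnm1l (-0.14 ± 0.13), called in the acute study alone, a difference between the studies was not shown. The effect of NMN in Doxo-treated mice differed between the studies for 0 of 9 members, against 6.09% of genes, with 1 member (Oma1) at an unadjusted p under 0.05 (0.52 ± 0.17, adjusted p = 0.0567), which was called without acute Doxo replicate 6 (0.61, adjusted p = 0.00543) and without chronic Doxo replicate 2 (0.55, adjusted p = 0.0363). The schedule, age, mouse supplier, diet, dose and route of NMN, and sequencing site differ with the study, so that their parts cannot be told apart.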

How the data were processed

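Poly(A) RNA of mouse hearts was sequenced for the authors, mapped to mm10 with STAR and counted per gene with featureCounts 2.0.0. Raw whole-number counts were deposited for each gene. The labels do not say which parts of each heart were taken. The submitters' processing notes name STAR 2.7.3a, and the study's methods another version. Of the low counts (1 to 20) in an acute heart, a median of 73.6% were even numbers, against 40.3% in a chronic heart. Whether acute fragments were counted more than once was not settled, so depths and floors are as counted in each table and are not comparable between the studies. The members and gene lists were chosen with earlier results of these data known.

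Genes were filtered with filterByExpr, normalized with TMM and tested with the quasi-likelihood F-test (edgeR 4.0.16, R 4.3.3), all 3 groups of a study in 1 fit, with Benjamini-Hochberg adjustment over all genes tested (14240 acute, 14960 chronic). A call is an adjusted p under 0.05. In the acute study, calls with a change of at least 1.5-fold were also counted separately. The SE was taken as the log2 fold change divided by the square root of F. The study's methods name this test and TMM, its results section gives the thresholds, and a low-count filter is named in neither. A count of 3, taken as the floor (counting error only), equals 0.0576 to 0.0926 CPM in an acute heart and 0.126 to 0.169 CPM in a chronic heart. Doxo and NMN effects were compared between studies by interaction contrasts on the 25416 genes shared by symbol. The labels give separate mice, and no pair of libraries of the same group agreed within sampling noise (lowest chi-square per gene 10.4 acute and 5.49 chronic). Pairs of libraries from different groups were not compared.

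Named genes were all members, the 2 genes of each pathway list with the smallest adjusted p in acute Doxo vs. Ctrl, the gene most alike to each member, and pathway genes called in the chronic study. Any other gene was named after its values were seen, and the gene most alike to Dnm1l is not reported here. Exon lengths are from GENCODE M21 (GRCm38), which gave a length for 99.5% of acute and 99.7% of chronic genes tested. All 9 members matched the RefSeq promoter table, and the window closest to the annotated start was used. The motifs were chosen after some promoters had been read.

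As alternatives, limma 3.58.1 (voom, sample weights) and DESeq2 1.42.0 were run, with RLE scaling, without a filter, with a minimum of 10 counts per heart, on the 2 groups alone, with a replicate block, with an atrial marker covariate, on either side of 100 CPM of Myl4, on acute counts divided by 2, with a prior count of 0.5 for the ratios, and without each heart in turn. The gene length covariate and the fits over both studies without 1 chronic heart were added after the data were seen. Simulated data with known changes were used to test the fits. Python 3.11.15 (numpy 2.4.6, pandas 2.3.3, scipy 1.17.1) gave the ratios. No columns of the authors' own comparisons were used.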

Additional observations from a re-analysis of the deposited data

Results flagged for a closer look

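The effect of Doxo on Oma1 differed between the acute and the chronic study by -0.64 on the log2 scale (edgeR interaction test, adjusted p = 0.00869), and that on Pink1 by 0.58 (adjusted p = 0.0148). In acute Doxo hearts 12 of 13 lay below every Ctrl heart for Oma1 and 12 of 13 above every Ctrl heart for Pink1, whereas the chronic groups overlapped. The cause was not tested, and the study, schedule, age, mouse supplier, diet and sequencing site cannot be told apart.

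Single chronic hearts far from the rest of their group were looked for in 36 groups of values (the 9 genes and 3 ratios in 3 groups), with Dixon's 95% limit, which chance passes in about 1 in 20 groups, and 5 were found. Ctrl replicate 1 had 261.8 CPM of Mfn1 and 22.6 CPM of Oma1, the lowest of 5 hearts. Doxo replicate 2 had 986 CPM of Pink1, the highest of 6, and the lowest log2 Oma1/Yme1l1 ratio (-1.16), with 568.4 CPM of atrial markers, the highest of 6, 462 CPM of fibroblast markers, the lowest, and 16.1 CPM of red cell markers, against 184 to 351 CPM in the others. On the axis from the chronic Ctrl (0) to the chronic Doxo mean (1), computed without the heart placed, it lay at 1.33, and the other 5 Doxo hearts at 0.437 to 0.634. Doxo-NMN replicate 4 had 508.5 CPM of Pink1, the lowest of 6, with 70084 CPM of cardiomyocyte markers, and 81.2 CPM of Myl4 and 24.8 CPM of adipocyte markers, the highest of 6. The part of these marker levels was not tested.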

How the results depend on the processing

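The 6 calls of acute Doxo vs. Ctrl kept their direction in every alternative, and Mfn2 and Dnm1l lost theirs in the Myl4 sets named above. Acute Doxo-NMN vs. Doxo gave 5 called members, and 3 among hearts under 100 CPM of Myl4, where Opa1 and Yme1l1 lost their calls. Dnm1l was called there without any 1 of 7 hearts (0.18 to 0.20: Doxo replicates 2, 6, 7 and 9, Doxo-NMN replicates 10, 11 and 12) and Mff without Doxo replicate 1 (-0.10). Acute Doxo-NMN vs. Ctrl gave 1 called member, 3 with the 2 groups alone, 2 with the replicate block, 2 with the atrial covariate, 4 with limma, 0 among hearts at or over 100 CPM of Myl4, and 1 to 3 without single hearts, where Fis1 was called without any 1 of 12 hearts (0.15 to 0.16: Ctrl replicate 4, Doxo replicates 4, 5, 6, 7, 10, 11 and 12, Doxo-NMN replicates 2, 6, 7 and 9) and Mfn2 without Doxo-NMN replicate 2 (0.16). A heart outside the 2 groups compared acts on such a result only through the shared fit. The NMN effect between studies gave 0 calls, 1 with acute counts divided by 2, and 0 to 1 without single hearts. Among hearts under 100 CPM of Myl4 the acute ratio Mfn1/Mfn2 in Doxo vs. Ctrl was called (-0.30) and Mff/Fis1 in Doxo-NMN vs. Ctrl was not (-0.22), and Mfn1/Mfn2 was called without acute Doxo replicate 6 (-0.16). Equal replicate numbers did not pair the hearts, with a median correlation of their deviations of 0.06 (acute) and 0.02 (chronic), and the block moved no other number of called members by over 1.5 times. The cause of these shifts was not tested.

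Changes of sign were seen only where neither value was called. In acute Doxo vs. Ctrl, Mfn1 was -0.0092 with the atrial covariate and -0.072 under 100 CPM of Myl4 and Mff was -0.011 at or over 100 CPM of Myl4. Without single hearts the range in acute Doxo vs. Ctrl was -0.0073 to 0.064 (Mfn1). In acute Doxo-NMN vs. Doxo, Mfn1 was -0.035 at or over 100 CPM of Myl4. In acute Doxo-NMN vs. Ctrl, Oma1 was 0.023 with limma and Dnm1l was 0.024 with limma. In chronic Doxo vs. Ctrl, Yme1l1 was 0.0023 with RLE factors, 0.0015 with 10 counts in every heart, 0.0043 with the 2 groups alone, 0.030 with the replicate block, 0.029 with the atrial covariate and 0.0022 with DESeq2, Opa1 was 0.019 with the atrial covariate, Dnm1l was 0.053 with the atrial covariate, Fis1 was -0.038 with the atrial covariate, Mfn1 was -0.066 with limma, Mfn2 was -0.14 with limma and -0.0047 with the length covariate, Oma1 was -0.024 with limma and -0.0059 with the length covariate and Pink1 was -0.037 with limma. Without single hearts the range in chronic Doxo vs. Ctrl was -0.053 to 0.11 (Mfn1), -0.14 to 0.13 (Mfn2), -0.082 to 0.048 (Oma1), -0.034 to 0.062 (Mff), -0.086 to 0.091 (Yme1l1), -0.15 to 0.0095 (Dnm1l), -0.0048 to 0.17 (Fis1), -0.064 to 0.095 (Mfn1/Mfn2), -0.22 to 0.046 (Mff/Fis1) and -0.041 to 0.052 (Oma1/Yme1l1). In chronic Doxo-NMN vs. Doxo, Fis1 was -0.0039 with RLE factors and with DESeq2, -0.0032 without a filter, -0.0024 with 10 counts in every heart, -0.0097 with the 2 groups alone, -0.0060 with the replicate block and -0.12 with the length covariate, Pink1 was 0.00054 with the atrial covariate, 0.15 with limma and 0.039 with the length covariate, Mfn1 was 0.020 with limma and 0.013 with the length covariate, Opa1 was 0.0010 with limma and 0.12 with the length covariate, Yme1l1 was 0.016 with limma and 0.097 with the length covariate and Mff was 0.013 with the length covariate. Without single hearts the range in chronic Doxo-NMN vs. Doxo was -0.042 to 0.037 (Fis1), -0.048 to 0.038 (Yme1l1), -0.063 to 0.11 (Pink1), -0.064 to 0.0094 (Mff), -0.093 to 0.018 (Opa1) and -0.098 to 0.043 (Mff/Fis1). In chronic Doxo-NMN vs. Ctrl, Yme1l1 was 0.017 with the replicate block, 0.013 with the atrial covariate and 0.070 with the length covariate, Dnm1l was 0.00020 with the replicate block, 0.090 with the atrial covariate and 0.042 with the length covariate, Fis1 was -0.019 with the atrial covariate, Mff was 0.10 with the atrial covariate and 0.020 with the length covariate and Mfn1 was 0.043 with the length covariate. Without single hearts the range in chronic Doxo-NMN vs. Ctrl was -0.075 to 0.22 (Mfn2), -0.14 to 0.035 (Mfn1), -0.10 to 0.074 (Yme1l1), -0.10 to 0.057 (Dnm1l), -0.0091 to 0.17 (Fis1), -0.056 to 0.024 (Mff) and -0.24 to 0.034 (Mff/Fis1). For the Doxo effect, acute minus chronic, Mfn1 was 0.0070 with RLE factors. Without single hearts the range for the Doxo effect, acute minus chronic was -0.066 to 0.095 (Mfn1), -0.28 to 0.0069 (Opa1), -0.049 to 0.13 (Yme1l1) and -0.0072 to 0.086 (Mff).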
